A study of Homo sapiens with 8 samples.

Results

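The genes described here are 10 members of the matrix metalloproteinase system, among 17131 genes counted in HaCaT keratinocytes: the collagenases MMP1 and MMP13, the gelatinases MMP2 and MMP9, the stromelysins MMP3 and MMP10, the membrane-type enzyme MMP14, and the inhibitors TIMP1, TIMP2 and TIMP3. They were chosen by gene family, and selected on the difference between the library groups in these same counts, which was already known. Their differences between groups are therefore a description. The adjusted p-values printed for them set each difference against the spread between libraries and lend it no independent support.

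Keratinocytes build the epidermis, and HaCaT is an established human line of them. The labels give its genotype as wild type in all samples. All cultures received M5 for 24 h, a cocktail of oncostatin M, TNF-α, IL-1α, IL-17A and IL-22, each at 10 ng/mL, used to model psoriasis in culture, and the comparison asks what OTS514, an inhibitor of the kinase TOPK, changes in that state. The methods give 10 nM OTS514 for 12 h ahead of M5 and then together with M5 for the 24 h. There were 8 libraries, 4 titled M5_O5 and 4 titled M5, and their labels conflict. By the titles, M5_O5 would be the cultures given both M5 and OTS514, whereas the treatment field lists the M5_O5 libraries as not treated and the M5 libraries as given the TOPK inhibitor. All directions below are therefore stated between titles, and which group received OTS514 cannot be told from the labels. No unstimulated culture was analysed here, so the change that M5 itself brings was not measured. All samples come from a single cell line, and no source says whether the libraries are separate cultures, so p-values measure only the spread between these samples, which may be technical.

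Matrix metalloproteinases (MMPs) are zinc enzymes that cut collagens, laminins and other proteins of the extracellular matrix, as well as cytokines and surface receptors. Most are secreted as inactive proenzymes and become active when their propeptide is cut off, by plasmin, by furin or by other MMPs. The tissue inhibitors of metalloproteinases (TIMPs) block the active site, and TIMP2 also helps MMP14 to activate proMMP2 at the cell surface. In skin, keratinocytes at wound edges and in inflamed epidermis make several of these enzymes, MMP1, MMP9 and MMP10 among them. Only mRNA was measured here, so proenzyme activation and inhibitor binding were outside the measurement.

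Promoter sequence was read from a prepared set of RefSeq promoters (GRCh38.p14). The set held an entry for 4 of the 10 members, MMP10, MMP14, TIMP1 and TIMP3. The promoters of MMP10 and TIMP1 are shown because these genes stand for an enzyme whose mRNA differed between the groups and an inhibitor whose mRNA did not pass the test. Each run is the 250 bases ahead of the gene's start, 5′ to 3′ on the gene's own strand, at chr11:102780629-102780878 (minus strand) for MMP10 and chrX:47582186-47582435 (plus strand) for TIMP1. Capitals mark matches to the AP-1 motif TGANTCA and to the TATA box TATAAA, searched on both strands. GGGANTTCC, a narrow pattern that does not cover all NF-κB sites, was searched in the same way.
MMP10: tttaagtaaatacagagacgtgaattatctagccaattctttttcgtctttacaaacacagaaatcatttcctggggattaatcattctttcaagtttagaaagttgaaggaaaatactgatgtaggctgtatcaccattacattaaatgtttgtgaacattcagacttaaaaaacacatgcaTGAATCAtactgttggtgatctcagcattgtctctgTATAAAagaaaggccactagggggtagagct
TIMP1: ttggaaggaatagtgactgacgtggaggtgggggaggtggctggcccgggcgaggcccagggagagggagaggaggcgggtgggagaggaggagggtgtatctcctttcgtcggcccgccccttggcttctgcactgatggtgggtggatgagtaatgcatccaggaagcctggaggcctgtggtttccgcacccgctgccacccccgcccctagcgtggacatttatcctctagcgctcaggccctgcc
The MMP10 window held an AP-1 match 67 to 61 bases ahead of the start and a TATA box 31 to 26 bases ahead of it, which do not overlap. No exact match to any of the 3 patterns was found in these windows of TIMP1, MMP14 or TIMP3. Sites that depart from these patterns were not searched for, so their absence is not shown. Among 35116 RefSeq promoter windows of the same length, 6.57% held the AP-1 pattern, 10.7% the TATA box pattern and 1.59% the NF-κB pattern. A match is a stretch of letters and no measurement of binding.

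Total counts per library lay between 13708055 and 16922693, with the lowest total in M5 replicate 1, and 12434 genes had enough counts to be tested. All 12 keratinocyte markers examined were above 10 CPM on average, with a summed level of 17500 to 20100 CPM in M5_O5 and 20900 to 24500 CPM in M5. Of the fibroblast list, 4 of 10 genes were tested, with COL1A1 and FAP above 10 CPM, and its summed level was 71.8 to 77.5 CPM in M5_O5 and 84 to 97 CPM in M5. The neutrophil and macrophage list summed to 80.0 to 99.0 CPM in M5_O5 and 94.9 to 127 CPM in M5, nearly all of it CD14 and CD68, and PTPRC, the leukocyte marker, was at 0 counts in all libraries. Endothelial markers summed to 3.5 to 4.03 CPM in M5_O5 and 0.436 to 1.45 CPM in M5, with CDH5, the only gene of the list that was tested, at 2.93 ± 0.423 and 0.320 ± 0.149 CPM (SD, n = 4). The groups did not overlap for CDH5, as for the 17.8% of all genes tested that lay higher in M5_O5 without overlap. Its level in M5 was near the floor, and the other endothelial genes counted overlapped between groups. The melanocyte list summed to 1.9 to 2.62 CPM in M5_O5 and 1.45 to 1.9 CPM in M5. The part of these levels in the results below was not tested, and in bulk samples fewer cells of a type and less RNA per cell cannot be told apart.

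All 10 members were tested. In M5_O5, 6 were lower than in M5 at an adjusted p under 0.05 (MMP1, MMP3, MMP9, MMP10, MMP13 and MMP14), 2 were higher (MMP2 and TIMP2), and TIMP1 and TIMP3 did not pass. Of all 12434 genes tested, 17.6% were lower and 19.5% higher by the same rule, so a gene past this threshold is common in these libraries. A difference of at least 2-fold was less common: 0.330% of genes were that much lower in M5_O5, which included MMP1, MMP9 and MMP10, and 2.87% that much higher, which included MMP2. The 4 libraries of a group all lay below those of the other for the 6 lower members and all above for the 2 higher ones, an arrangement that 15.8% and 17.8% of all genes showed. The median log2 fold change of M5_O5 over M5 was -0.51 over the 10 members and -0.76 over the 7 MMPs, beside 0.01 over all genes tested. Because the members were chosen with this contrast known, nothing is read from these shares. Levels below are in CPM, counts relative to the TMM-scaled library total, which compare the same gene between libraries, and fold changes are from the edgeR fit.

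**Figure D1:**
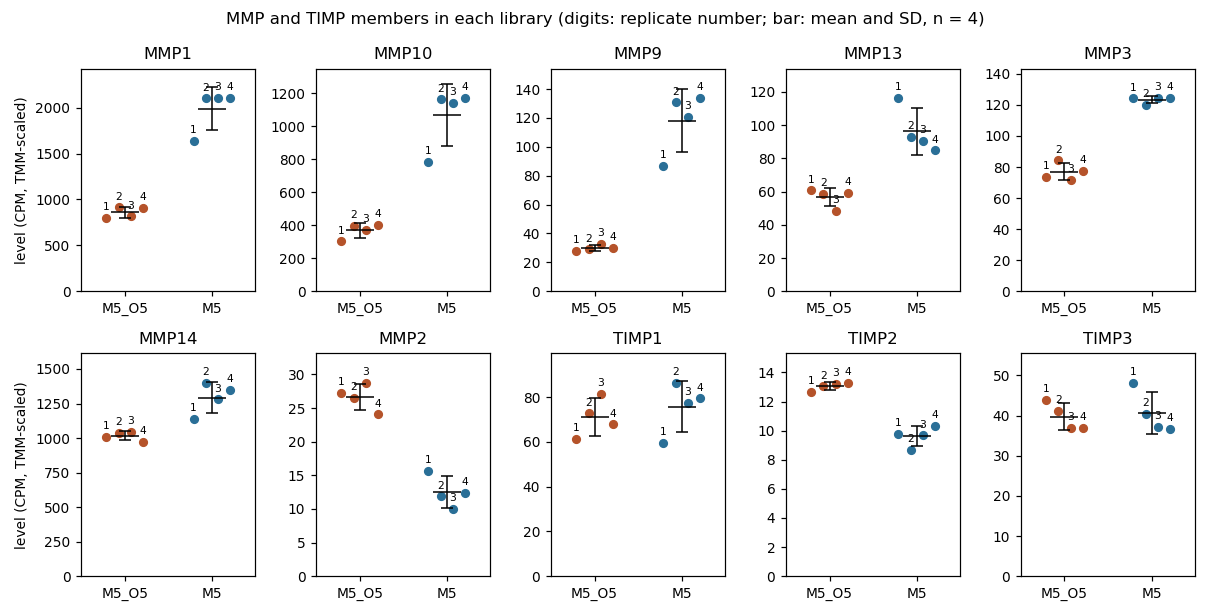
Level of each gene in CPM (TMM-scaled, linear axis from 0) in the 4 M5_O5 and the 4 M5 libraries, with the replicate number beside each point and the mean and SD as bars. MMP1, MMP10, MMP9, MMP13, MMP3 and MMP14 lie lower in all M5_O5 libraries, MMP2 and TIMP2 lie higher, and the groups overlap for TIMP1 and TIMP3.

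MMP1, interstitial collagenase, opens the triple helix of fibrillar collagens and had the highest level per transcript length (TPM) of the members. Its level in M5_O5 was 803, 913, 818 and 907 CPM in replicates 1 to 4, and in M5 it was 1639, 2101, 2105 and 2109 CPM. Replicates 2 to 4 of M5 were nearly equal, replicate 1 lay well below them, and even that library stood above all of M5_O5. The means were 860 ± 57.7 and 1988 ± 233 CPM (SD, n = 4), a log2 fold change of -1.21 (SE 0.08, adjusted p = 4.71e-07), so that MMP1 was 2.31-fold higher in M5.

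MMP13, collagenase-3, cuts fibrillar collagens as well. Its CPM in M5_O5 was 60.7, 58.6, 48.4 and 59.2, against 117, 93.1, 90.4 and 84.9 in M5. The groups did not overlap, and here M5 replicate 1 was the highest library rather than the lowest of its group. MMP13 was 1.70-fold higher in M5 (log2 fold change -0.76, SE 0.10, adjusted p = 4.23e-05), with means of 56.7 ± 5.63 CPM in M5_O5 and 96.2 ± 14.0 CPM in M5 (SD, n = 4).

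The gelatinases MMP9 and MMP2, which degrade denatured collagen and type IV collagen of basement membranes, differed in opposite directions. MMP9 was at 27.8, 29, 33 and 30.2 CPM in M5_O5 and at 86.9, 131, 121 and 134 CPM in M5. All M5 libraries lay far above all M5_O5 libraries, with replicate 1 the lowest of the former. Its means of 30 ± 2.2 and 118 ± 21.6 CPM (SD, n = 4) gave the largest difference among the members, 3.94-fold higher in M5 (log2 fold change -1.98, SE 0.11, adjusted p = 7.79e-08). MMP2 was at 27.3, 26.5, 28.8 and 24.1 CPM in M5_O5 and at 15.7, 11.9, 10 and 12.4 CPM in M5. Every M5_O5 library lay above every M5 library, and M5 replicate 1 came nearest to them. For MMP2 the means were 26.7 ± 1.97 and 12.5 ± 2.37 CPM (SD, n = 4), and the level was 2.14-fold higher in M5_O5 (log2 fold change 1.10, SE 0.11, adjusted p = 8.35e-06). The ratio of MMP9 to MMP2 in TPM, a unit that divides by transcript length, was accordingly 1.61 to 1.99 in M5_O5 and 8.78 to 19.1 in M5.

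Stromelysin-2, MMP10, degrades a broad range of matrix proteins and activates other proMMPs. The M5_O5 libraries held 304, 398, 373 and 403 CPM of it, and the M5 libraries 786, 1165, 1142 and 1175 CPM. As for MMP1, replicates 2 to 4 of M5 lay close together, replicate 1 lay below them, and the groups did not overlap. MMP10 was 2.89-fold higher in M5 (log2 fold change -1.53, SE 0.12, adjusted p = 9.76e-07), from means of 369 ± 45.6 and 1067 ± 188 CPM (SD, n = 4). MMP3, stromelysin-1, is its closest relative in the list. It was at 73.8, 84.4, 71.9 and 77.7 CPM in M5_O5 and at 124, 120, 124 and 125 CPM in M5. In CPM the M5 libraries lay closer together, relative to their mean, than for any other member, and replicate 1 did not stand apart. This did not hold in TPM, where their SD was 7.79% of the mean. There replicate 1 was the highest M5 library, at 136 against 113 to 123 TPM. MMP3 was 1.60-fold higher in M5 (log2 fold change -0.68, SE 0.06, adjusted p = 2.36e-06), with means of 77.0 ± 5.54 and 123 ± 2.21 CPM (SD, n = 4). The TPM ratio of MMP10 to MMP3 was 4.29 to 5.41 in M5_O5 and 6.60 to 10.1 in M5, so the pair did not keep a constant proportion. In protein-coding transcripts of the GENCODE annotation, MMP3 and MMP10 share 59 windows of 50 identical bases, 2.95% of MMP3 and 3.36% of MMP10. Reads from these windows cannot be told apart by sequence. The RefSeq transcripts that were counted were not searched in this way.

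MMP14, the membrane-type enzyme MT1-MMP, sits at the cell surface, cuts collagen around the cell and activates proMMP2. Its level was 1010, 1037, 1046 and 971 CPM in M5_O5 and 1139, 1402, 1280 and 1348 CPM in M5. The groups did not overlap, and M5 replicate 1 lay nearest to the M5_O5 libraries. The difference was the smallest of the members that passed, 1.27-fold higher in M5 (log2 fold change -0.35, SE 0.07, adjusted p = 0.00122), with means of 1016 ± 33.3 and 1292 ± 114 CPM (SD, n = 4).

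Of the inhibitors, only TIMP2 passed the test. TIMP1, which binds proMMP9 and inhibits most secreted MMPs, was at 61.3, 72.8, 81.5 and 67.9 CPM in M5_O5 and at 59.6, 86.5, 77.3 and 79.4 CPM in M5. The lowest library of all was M5 replicate 1 and the groups overlapped throughout. The log2 fold change was -0.10 with a 95% interval from -0.32 to 0.12 (adjusted p = 0.489). TIMP2 was at 12.7, 13, 13.2 and 13.3 CPM in M5_O5 and at 9.78, 8.69, 9.67 and 10.3 CPM in M5. No M5 library reached the lowest M5_O5 library, and the M5_O5 libraries were close to each other. TIMP2 was 1.36-fold higher in M5_O5 (log2 fold change 0.44, SE 0.09, adjusted p = 0.00147), from means of 13.1 ± 0.282 and 9.62 ± 0.688 CPM (SD, n = 4).

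TIMP3 differs from the other inhibitors in that it binds to the matrix and also blocks ADAM17. It was at 43.9, 41.2, 37.0 and 37.0 CPM in M5_O5 and at 48.3, 40.4, 37.3 and 36.7 CPM in M5. The groups overlapped, with replicate 1 the highest in each and M5 replicate 1 above all other libraries. The log2 fold change was -0.03 with a 95% interval from -0.22 to 0.16 (adjusted p = 0.824). Intervals of TIMP1 and TIMP3 leave room for differences of that size in either direction, so equal levels are not shown. With scaling by library size, or on the TPM scale, the median of all genes moved from 0.01 to 0.12 or 0.13, and the sign of both genes turned positive (TIMP1 0.02 to 0.03, TIMP3 0.08 to 0.10 on the log2 scale).

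In CPM, M5 replicate 1 stood apart from the other M5 libraries in both directions. Relative to their mean, it held 67.6% of MMP9, 67.7% of MMP10, 73.6% of TIMP1, 77.9% of MMP1 and 84.8% of MMP14, but 137% of MMP2, 130% of MMP13 and 127% of TIMP3. MMP3 at 101% and TIMP2 at 102% did not stand apart. These shares depend on the scale. In TPM, replicate 1 was the highest M5 library for MMP3 (136 against 113 to 123 TPM) and TIMP2 (4.82 against 3.67 to 4.59 TPM). For MMP14 it lay close to the others (554 against 556 to 589 TPM). The other members kept their direction in M5 replicate 1. Without this library the log2 fold change was -1.29 for MMP1, -2.10 for MMP9, -1.65 for MMP10, -0.66 for MMP13, -0.68 for MMP3, -0.40 for MMP14, 1.22 for MMP2 and 0.45 for TIMP2, and all of these passed. TIMP1 then stood at -0.19 (adjusted p = 0.0622) and TIMP3 at 0.06.

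Levels of different genes were compared in TPM, summed over the transcripts of a gene. Averaged over the 8 libraries, MMP1 led with 1323 TPM, followed by MMP10 (761 TPM), MMP14 (531 TPM), TIMP1 (236 TPM) and MMP3 (103 TPM). Below them came MMP9 with 55.7 TPM, MMP13 with 49.7 TPM, TIMP3 with 14.8 TPM, MMP2 with 9.78 TPM and TIMP2 with 5.37 TPM. This order was not the same in both groups. In M5, MMP10 (898 to 1209 TPM) lay above MMP14 (554 to 589 TPM), whereas in M5_O5 MMP14 (479 to 511 TPM) lay above MMP10 (358 to 466 TPM). MMP13 (32.3 to 43.3 TPM) lay above MMP9 (22.5 to 26.1 TPM) in M5_O5, while in M5 their ranges of 52.5 to 80.0 and 70.8 to 98.4 TPM overlapped. Neighbours whose ranges also overlapped were TIMP3 and MMP2 in M5_O5 (13.8 to 17.6 and 12.6 to 14.6 TPM) and MMP2 and TIMP2 in M5 (4.6 to 8.07 and 3.67 to 4.82 TPM). Elsewhere in the order, neighbours did not overlap within a group.

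**Figure D2:**
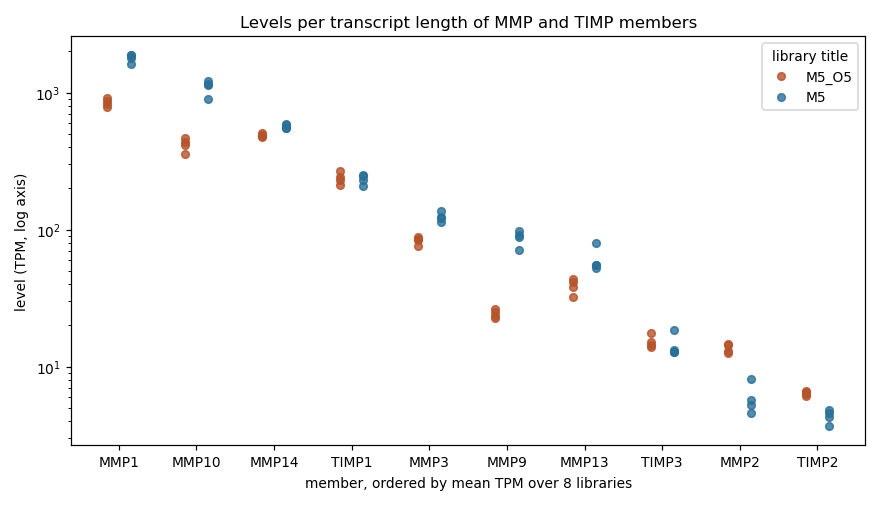
Level in TPM (log axis) of each gene in the 8 libraries, ordered by the mean over all of them, with M5_O5 and M5 libraries side by side. MMP1 lies highest in both groups, MMP10 and MMP14 exchange places between them, and TIMP2 lies lowest.

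Summed over the 7 enzymes, the level was 1861, 1946, 1848 and 2022 TPM in M5_O5 and 3378, 3786, 3857 and 3969 TPM in M5. The sum of the 3 inhibitors was 234, 265, 289 and 253 TPM in M5_O5 and 231, 268, 247 and 264 TPM in M5. The enzyme sums did not overlap between groups and the inhibitor sums did. The ratio of both sums, a ratio of mRNA levels and not of active enzyme to inhibitor, was 7.42 ± 0.744 in M5_O5 and 14.9 ± 0.646 in M5 (SD, n = 4), with no overlap. For pairs whose proteins are known to bind each other, MMP9 over TIMP1 was 0.0924 to 0.112 in M5_O5 and 0.342 to 0.400 in M5, and MMP14 over TIMP2 was 72.0 to 78.6 and 115 to 159. MMP2 over TIMP2 went the other way, from 1.89 to 2.27 in M5_O5 to 1.08 to 1.67 in M5. The ratio of both collagenases, MMP1 over MMP13, overlapped between groups, at 19.1 to 24.5 in M5_O5 and 20.4 to 36.1 in M5.

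**Figure D3:**
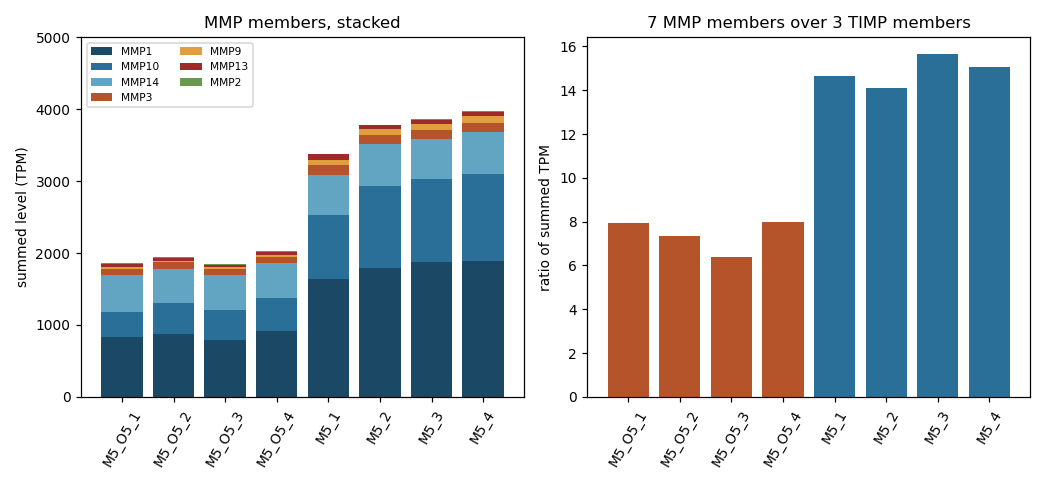
Left, stacked TPM of the 7 enzymes in each library, and right, the ratio of summed enzyme TPM to summed inhibitor TPM, both on linear axes from 0. The enzyme sum lies between 1848 and 2022 TPM in M5_O5 and between 3378 and 3969 TPM in M5, and MMP1, MMP10 and MMP14 make up nearly all of it.

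The make-up of the enzyme sum also differed. MMP1 held 42.8% to 45.2% of it in M5_O5 and 47.4% to 48.5% in M5, and MMP10 held 19.3% to 23.0% and 26.6% to 30.5%. MMP14 held the larger share in M5_O5, 23.7% to 27.5% against 14.4% to 16.4% in M5. MMP2 held at most 0.784% in any library. Among the inhibitors TIMP1 supplied 89.7% to 93.7% of the TPM in every library, so the inhibitor sum is close to the level of TIMP1 alone.

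For most members 1 transcript carried the counts. MMP2 had 4 listed transcripts, of which 1 held nearly all counts and another 0.0381%, and TIMP1 had 2, with 89% and 11% of its counts. Several members overlap other genes in the GENCODE annotation, and the sources used here do not say whether counting used strand, so reads of such pairs may not be told apart. SYN3, in which TIMP3 lies on the opposite strand, had 503 to 1237 counts, the most in M5_O5 replicate 1, and SYN1, opposite TIMP1, had 14 to 45 counts. WTAPP1, opposite MMP1, MMP3 and MMP10, and SLC12A5-AS1, opposite MMP9, were not analysed here.

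Of 17 other genes listed (16 MMPs and TIMP4), 14 were in the table and 9 were tested. MMP12 and MMP28 were lower in M5_O5, none was higher, 7 did not pass, and the median log2 fold change was 0.06. MMP12, macrophage elastase, was at 2.09, 2.41, 2.43 and 2.73 CPM in M5_O5 and at 5.77, 4.90, 5.46 and 4.80 CPM in M5. Its level was low in every library, and the groups did not overlap (log2 fold change -1.11, SE 0.14, adjusted p = 4.9e-05). MMP28, epilysin, an enzyme made by keratinocytes, ranged from 74.5 to 82.3 CPM in M5_O5 and from 114 to 121 CPM in M5 (log2 fold change -0.60, SE 0.05, adjusted p = 2.77e-06). MMP15, a membrane-type relative of MMP14, had a log2 fold change of -0.12 (adjusted p = 0.225). MMP8, the neutrophil collagenase, had 1 count in all 8 libraries together and MMP16 had 0.

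RefSeq order along the chromosome places MMP7, MMP20, MMP27, MMP8, MMP10, MMP1, MMP3, MMP12 and MMP13 next to each other, in that order, and 4 of the members lie in this run. MMP10, MMP1, MMP3, MMP12 and MMP13 were all lower in M5_O5, with log2 fold changes of -1.53, -1.21, -0.68, -1.11 and -0.76. MMP7, matrilysin, at the end of the run had a log2 fold change of 0.29 with a 95% interval from -0.50 to 1.08 (adjusted p = 0.565), at 0.661 CPM on average. MMP20 and MMP27 were not analysed here.

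Of 20 proMMP activators listed, 14 were in the table and 11 tested, with 5 lower in M5_O5, 2 higher and 4 that did not pass (median log2 fold change -0.17). TMPRSS4, a membrane-bound serine protease, was 1.58-fold higher in M5 (log2 fold change -0.66, SE 0.08, adjusted p = 3.9e-05). FURIN, the proprotein convertase that activates MMP14 inside the cell, was 1.36-fold higher in M5 (log2 fold change -0.44, adjusted p = 0.000208). PLAUR, the receptor that holds urokinase at the cell surface, was likewise 1.36-fold higher in M5 (adjusted p = 0.000894). PLAU, urokinase itself, had a log2 fold change of -0.45 (adjusted p = 0.00631), and was named after its value was seen.

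Inhibitors of plasmin generation and other protease inhibitors were found among both the higher and the lower genes. Of 17 listed, 14 were tested, with 3 higher, 3 lower and 8 not passing (median -0.12). SERPINB2, plasminogen activator inhibitor-2, was at 328, 279, 293 and 271 CPM in M5_O5 and at 130, 140, 135 and 136 CPM in M5. It was 2.16-fold higher in M5_O5 with no overlap (log2 fold change 1.11, SE 0.06, adjusted p = 6.77e-08). SERPINE2, protease nexin-1, and CST3, cystatin C, were lower in M5_O5, with log2 fold changes of -0.53 and -0.28. Without M5 replicate 1, or with the replicate number as a block, 5 in place of 3 were lower, and with limma on log2(TPM + 1) 5 in place of 3 were higher.

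Among 14 partners of MMPs at the surface and in secretion, 13 were tested, with 7 lower in M5_O5, 1 higher and 5 not passing (median -0.19). ITGAV, the integrin αV chain, was 1.71-fold higher in M5 (log2 fold change -0.77, adjusted p = 1.07e-05), and SDC1, syndecan-1, a surface proteoglycan, was 1.62-fold higher in M5 (-0.69, adjusted p = 6.02e-06). CAV1, caveolin-1, was the gene higher in M5_O5 (log2 fold change 0.74, adjusted p = 1.19e-05). On the TPM scale 4 of these genes were lower rather than 7, and with library size scaling 5 were. Without M5 replicate 1, with the replicate number as a block or with library size scaling, 2 rather than 1 were higher.

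The ADAM and ADAMTS proteases, which belong to the same metalloproteinase clan, had 12 of 32 listed genes tested, with 5 lower, 2 higher and 5 not passing (median -0.08). ADAM19 was 1.82-fold higher in M5 (log2 fold change -0.86, adjusted p = 4.27e-05) and ADAM15 was 1.23-fold higher in M5_O5 (log2 fold change 0.30, adjusted p = 0.0026). ADAM17, the TNF-α sheddase that TIMP3 inhibits, had a log2 fold change of -0.23 (adjusted p = 0.00511). With library size scaling or on the TPM scale 2 of these genes in place of 5 were lower, and ADAM17 did not pass.

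Transcription factors known to act on MMP promoters were tested in 25 of 27 cases, with 15 lower in M5_O5, 2 higher and 8 not passing (median -0.21). ETS1 was at 222, 213, 204 and 221 CPM in M5_O5 and at 334, 341, 360 and 364 CPM in M5. It was 1.63-fold higher in M5 with no overlap (log2 fold change -0.70, SE 0.05, adjusted p = 9.57e-07). RUNX1 was 1.37-fold higher in M5 (adjusted p = 1.64e-05), and ETV5 was 1.42-fold higher in M5_O5 (adjusted p = 0.000362). On the TPM scale 9 of these genes in place of 15 were lower, and with library size scaling 10 were.

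The matrix and surface substrates of MMPs were tested in 18 of 24 cases, with 7 lower in M5_O5, 3 higher and 8 not passing (median -0.03). THBS1, thrombospondin-1, a matrix glycoprotein, was at 132, 103, 121 and 103 CPM in M5_O5 and at 32.9, 36.0, 33.4 and 34.3 CPM in M5. It was 3.36-fold higher in M5_O5 with no overlap (log2 fold change 1.75, SE 0.08, adjusted p = 1.53e-08), and FN1, fibronectin, was 1.39-fold higher there (adjusted p = 3.88e-05). COL7A1, the collagen of anchoring fibrils, was 1.34-fold higher in M5 (adjusted p = 3.81e-05). Of all genes tested, 17.6% were lower and 19.5% higher in M5_O5 at the threshold used for these 7 lists. The lists were written with earlier results of these data known, so nothing is read from how their counts compare with these shares.

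**Figure D4:**
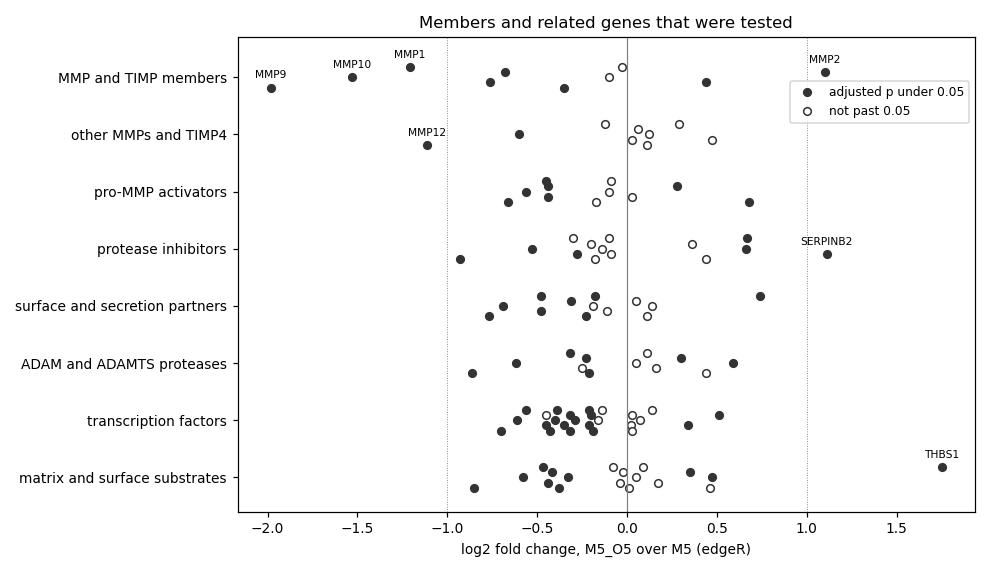
Log2 fold change of M5_O5 over M5 for the MMP and TIMP genes described and for the tested genes of the 7 related lists, with filled points at an adjusted p under 0.05, open points for genes that did not pass, and dotted lines at 2-fold. MMP9, MMP10, MMP1 and MMP12 lie beyond 2-fold on the left, and MMP2, SERPINB2 and THBS1 on the right.

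Genes whose levels followed those of MMP1, MMP9 and TIMP3 most closely were sought by Pearson's r of log2(CPM + 1) over the 8 libraries, among 8680 genes of at least 10 CPM on average. For MMP1 these were OLFM1 (r = 0.997), LRRC8C (0.996) and GRHL1 (0.996), and for MMP9 they were ARHGEF18 (0.999), KDM6B (0.998) and TBX3 (0.998). For TIMP3, whose groups overlapped, they were RNF128 (0.957), TRAFD1 (0.944) and SHROOM2 (0.924). The points share their libraries and, for MMP1 and MMP9, the difference between groups, so r is a description without a test.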

How the data were processed

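RNA of HaCaT cultures was sequenced in 8 libraries, 4 titled M5_O5 and 4 titled M5. The authors mapped filtered reads with HISAT2 2.1.0, quantified transcripts with StringTie and provided estimated counts without normalization for each library. They are deposited with TPM, which scales each library to a fixed sum, and FPKM, which divides by transcript length and library size and replaced TPM in an alternative for the shares of the enzyme sum. The submitters' processing notes also list Bowtie2 2.2.5, RSEM 1.2.8 and the mouse build mm10, although the table lists human RefSeq transcripts, and the human build is not given in the sources used here. Columns of group averages were not used.

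Estimated counts of 86639 transcripts, of which 4181 were repeat placements, were summed to 17131 genes by Entrez identifier and rounded to whole numbers. A RefSeq gene table supplied symbols for 17072, and 59 had none. Genes were filtered with filterByExpr, scaled by TMM and compared with edgeR 4.0.16 (R 4.3.3) by the quasi-likelihood test with Benjamini-Hochberg adjustment over all 12434 genes tested. The biological coefficient of variation was 7.42%. The fits were tested on simulated counts. Replicate pairs differed by more than sampling noise (chi-square per gene 2.05 to 17.1), so all 8 libraries were counted. Intervals cover the spread between libraries.

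The members and lists were chosen with earlier results of these data known. Named were all members, every gene of a list called at 2-fold, the 3 others per list with the smallest adjusted p below 0.05 and a mean of at least 10 CPM, and the 3 genes most like MMP1, MMP9 and TIMP3. Of the genes this rule names, 2 are not reported here. MMP7, MMP8, MMP15, MMP16 and PLAU were named after their values were seen. The alternatives comprised limma 3.58.1 on TPM, DESeq2 1.42.0, other filters and scalings, a replicate block, repeat placements dropped, and each library left out.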

Additional observations from a re-analysis of the deposited data

Results flagged for a closer look

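In groups of 4 libraries, the gap between the highest or lowest library and its neighbour was set against the range of the group for 38 sets of values. A library stood apart in 6 of them, where chance gives about 1 in 20 (1.9 of 38). The sets share members and libraries and are not independent, so no excess over chance is read from this. M5 replicate 1 was the library concerned in 3 of the 6. Its MMP1 level was 1639 CPM against 2101 to 2109 CPM in the other M5 libraries, its MMP10 level was 786 CPM against 1142 to 1175 CPM, and its TPM ratio of MMP10 to MMP3 was 6.60 against 9.58 to 10.1. MMP13 stood at 48.4 CPM in M5_O5 replicate 3 and at 58.6 to 60.7 CPM in the other M5_O5 libraries. MMP3 was at 120.0 CPM in M5 replicate 2 and at 124 to 125 CPM in the rest of M5, a small gap within a tight group. The TPM ratio of MMP14 to TIMP2 was 72.0 in M5_O5 replicate 4 and 78.0 to 78.6 in the others.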

How the results depend on the processing

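All 8 members that passed kept their direction and passed in each of 17 alternatives, with log2 fold changes of -1.29 to -1.08 for MMP1, -2.10 to -1.79 for MMP9, -1.65 to -1.39 for MMP10, -0.82 to -0.62 for MMP13, -0.73 to -0.55 for MMP3, -0.40 to -0.22 for MMP14, 1.0 to 1.22 for MMP2 and 0.39 to 0.56 for TIMP2. TIMP1 passed in none (-0.19 to 0.03) and turned positive with library size scaling (0.02) and with limma on log2(TPM + 1) and log2(TPM + 0.1) (0.03 in both). TIMP3 passed in none and turned positive with the same settings (0.08, 0.09 and 0.10), and ranged from -0.08 to 0.06 when single libraries were left out. Over all genes, the 41 called lower in M5_O5 became 25 with library size scaling, 71 without a filter, 8 and 18 with limma on log2(TPM + 1) and log2(TPM + 0.1), and 2192 without a fold threshold. The 357 called higher became 144 with limma on log2(TPM + 1) and 2421 without a fold threshold. Library size and TPM scaling moved the median log2 fold change of all genes from 0.01 to 0.12 or 0.13. Whether this shift had a part in the changed numbers was not tested, nor was any other cause of them.

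With the replicate number as a block, the log2 fold change was -1.20 for MMP1, -1.97 for MMP9, -1.52 for MMP10 and 1.10 for MMP2, and no member's call changed. Same-numbered libraries correlated in their deviations at 0.209, 0.0986, -0.00358 and 0.013 for numbers 1 to 4, and the libraries of numbers 3 and 4 correlated better with another number, so the numbers were not taken to pair the samples. MMP2 and TIMP2 rest on the fewest counts of the members. Their SEs were 0.11 and 0.09, within the range of 0.06 (MMP3) to 0.12 (MMP10) over the members. The part of depth in their precision was not tested.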
